A study of Sus scrofa with 41 samples.

Results

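The 7 genes described here, INSR, IRS1, PIK3R1, AKT2, TBC1D4, SLC2A4 and HK2, carry the insulin signal in muscle or take up and trap glucose. They were picked by name from the 25880 genes counted, with earlier results of these data known. All 7 passed the filter on low counts that left 11146 genes for testing. RNA was sequenced from the psoas major muscle, taken just after slaughter, of 41 uncastrated male pigs, 13 Danbred Duroc and 28 Danbred Landrace. All were fed without restriction, no group received a treatment, and each pig was sequenced once. Each pig came with a feed conversion ratio (FCR, which sets feed intake against weight gain), an RNA integrity number (RIN, higher for less degraded RNA), an age at sampling and 1 of 5 batches.

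Insulin binds its receptor on the muscle fibre, the receptor marks adaptor proteins, and these recruit PI3-kinase, whose lipid product activates the kinase AKT2. AKT2 switches off TBC1D4, a brake on the vesicles that store the glucose transporter GLUT4, so that the vesicles reach the cell surface. Glucose that enters is trapped by hexokinase. Skeletal muscle is a main site of insulin-driven glucose uptake, and much of this control acts on proteins already present, which a count of transcripts does not measure.

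The libraries held 22188911 to 25954816 read pairs on genes, with a median of 25243577. The breeds were not balanced for the other variables. FCR was 1.97 ± 0.103 in Duroc and 2.10 ± 0.0796 in Landrace (SD, n = 13 and 28), RIN was 8.12 ± 0.426 and 7.84 ± 0.496, and age was 147 ± 7.19 and 155 ± 4.75 days. Batch 1 held 1 Duroc pig and no Landrace pig, and batches 2 to 5 held both breeds. The trimmed-mean (TMM) scaling factors ran from 0.650 to 1.24, and 3 pigs stood lowest: Landrace replicate 27, Duroc replicate 10 and Landrace replicate 1, with RIN of 6.6, 7.0 and 6.5. The calls of the 7 genes for breed and RIN are given with and without them. The muscle fibre markers ACTA1, CKM and DES together made up 101575 to 187525 CPM (counts scaled to the effective library size) in each library, and the other 5 listed fibre markers were not analysed here.

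Expression is given as CPM after TMM scaling, which allows a gene to be compared between pigs but not with another gene, since it takes no account of transcript length. The level of each gene is described first, in the order of the pathway.

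INSR, the insulin receptor, lies at chr2:71797209-71939923 (ENSSSCG00000013566, Sscrofa11.1) and had 110 to 530 counts per pig. In Duroc the lowest, median and highest values were 7.06, 10.4 and 19.7 CPM, and in Landrace 5.52, 9.65 and 17.7 CPM. The breeds overlapped over most of their range, with 7 Landrace pigs below the lowest Duroc pig and 1 Duroc pig above the highest Landrace pig. INSR was one of the more thinly counted of the 7 genes, so its values carry more counting error than those of IRS1 or SLC2A4.

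IRS1, the adaptor that docks PI3-kinase to the active receptor, lies at chr15:128245846-128307321 (ENSSSCG00000025729) and had 1454 to 5511 counts per pig. Its lowest, median and highest values were 82.9, 133 and 192 CPM in Duroc and 72.9, 133 and 204 CPM in Landrace. The medians were nearly equal, and the breeds overlapped almost completely.

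PIK3R1, the main regulatory subunit of PI3-kinase, lies at chr16:46434757-46523626 (ENSSSCG00000016958) and had 673 to 2788 counts per pig. Duroc pigs ran from 39.3 to 89.6 CPM with a median of 59.0, and Landrace pigs from 33.9 to 101 CPM with a median of 50.0. Both the lowest and the highest pig were Landrace.

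AKT2, the AKT kinase most closely tied to insulin-driven glucose uptake, lies at chr6:48555785-48620472 (ENSSSCG00000002989) and had 1158 to 3007 counts per pig. Duroc pigs ran from 71.1 to 108 CPM with a median of 90.6, and Landrace pigs from 69.5 to 118 CPM with a median of 84.0. AKT2 varied least of the 7 genes: the SD of its log2 CPM over the 41 pigs was 0.19, and 8.66% of all genes tested had a smaller one.

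TBC1D4, also called AS160, lies at chr11:47543808-47760928 (ENSSSCG00000009464) and had 365 to 2446 counts per pig. Duroc pigs ran from 23.1 to 86.9 CPM with a median of 61.6, and Landrace pigs from 29.9 to 88.7 CPM with a median of 62.5. The 3 lowest pigs were Duroc replicate 10 with 23.1 CPM, Landrace replicate 1 with 29.9 CPM and Landrace replicate 27 with 31.7 CPM, the same pigs that had the lowest scaling factors.

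SLC2A4, which encodes GLUT4, lies at chr12:52628746-52634965 (ENSSSCG00000023915) and had 2359 to 6863 counts per pig. Duroc pigs ran from 136 to 231 CPM with a median of 190, and Landrace pigs from 96.6 to 252 CPM with a median of 157. Landrace pigs lay mostly lower: 27 of 28 were below the Duroc median and 9 were below the lowest Duroc pig. The single highest pig, replicate 2, was nonetheless Landrace.

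HK2, the hexokinase typical of insulin-sensitive muscle, lies at chr3:68155656-68231187 (ENSSSCG00000008261) and had 82 to 726 counts per pig. Duroc pigs ran from 5.98 to 37.9 CPM with a median of 9.58, and Landrace pigs from 4.93 to 19.1 CPM with a median of 9.80. HK2 varied most of the 7 genes, with a 7.68-fold range over the pigs. The medians were close, and the higher Duroc mean came from 3 pigs above every Landrace pig, replicates 5, 6 and 10 with 19.4, 26.4 and 37.9 CPM, all of batch 5.

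**Figure D1:**
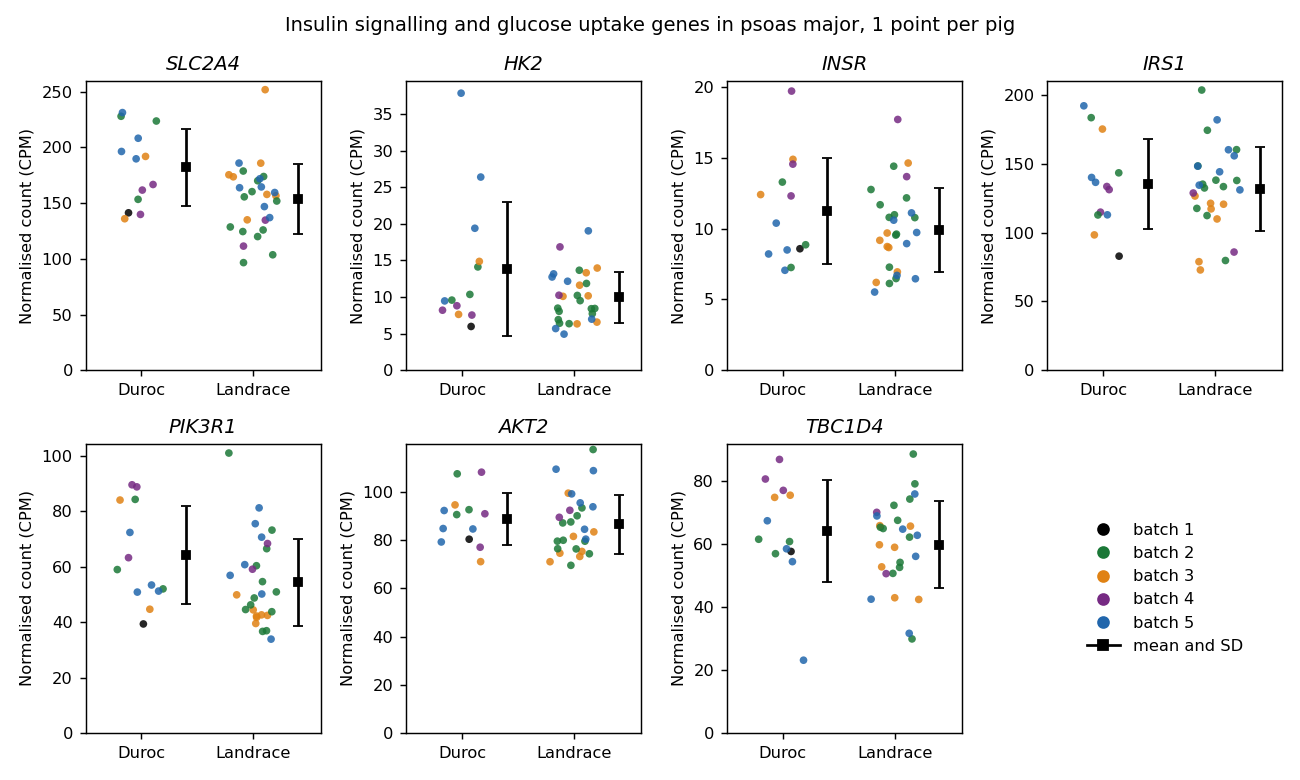
Normalised count (CPM, linear axis from 0) of each of the 7 genes in each pig, by breed, with points coloured by batch and a square with a bar for the mean and SD. SLC2A4 sits lower in most Landrace pigs, and 3 Duroc pigs of batch 5 stand above all Landrace pigs for HK2, while the other 5 genes overlap widely.

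The first comparison asked whether the breeds differed once FCR, RIN, age and batch were held fixed in the joint model. The model put SLC2A4 and HK2 lower in Landrace, HK2 by a call resting on single pigs, and the other 5 genes did not pass. This made 2 of 7 genes at a false discovery rate (FDR) under 0.1, while 33.1% of all genes tested passed, 15.6% higher and 17.5% lower in Landrace. The share among the 7 genes was thus close to that of all genes.

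SLC2A4 averaged 182 ± 34.6 CPM in Duroc and 154 ± 31.3 CPM in Landrace (SD, n = 13 and 28). In the joint model its log2 change, Landrace over Duroc, was -0.60 (SE 0.113, 95% interval -0.83 to -0.37, edgeR quasi-likelihood FDR 0.00024), and it ranked 288 of 11146 genes by p. With breed as the only term the log2 change was -0.25 (FDR 0.075), and with age left out it was -0.43, so that its size depended on the covariates while its direction did not. Within batches 2, 4 and 5 the mean log2 CPM of Landrace less that of Duroc was -0.52, -0.35 and -0.36, but in batch 3 it was 0.10. Each batch held few pigs of 1 breed or both: 3 Duroc and 12 Landrace in batch 2, and 2 and 7 in batch 3. Batch 4 held 3 and 2, and batch 5 held 4 and 7. Leaving out each pig in turn kept the log2 change between -0.64 and -0.54, and without the 3 pigs of lowest scaling factor it was -0.62 (FDR 0.00051).

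The mean of HK2 was 13.9 ± 9.19 CPM for Duroc and 10.0 ± 3.49 CPM for Landrace. Its log2 change was -0.63 (SE 0.268, 95% interval -1.17 to -0.08, FDR 0.0812), close in size to that of SLC2A4 but with a larger error. The call rested on single pigs: it was lost on leaving out any one of Duroc replicates 3, 5, 6 and 10 or Landrace replicates 8, 17, 26 and 28, with log2 changes of -0.58, -0.59, -0.48, -0.39, -0.60, -0.57, -0.55 and -0.53. Without the 3 pigs of lowest scaling factor it was -0.45 (FDR 0.194), and the call was lost as well with age left out (FDR 0.121), RIN left out (FDR 0.120), breed as the only term (FDR 0.105) or no filter on low counts (FDR 0.119). The difference within batches was -0.37, -0.11, 0.68 and -1.10 in batches 2, 3, 4 and 5.

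The other 5 genes had intervals that included 0. TBC1D4 came nearest to the threshold, with a log2 change of 0.27 (95% interval -0.02 to 0.56, FDR 0.173). IRS1 was at 0.14 (-0.14 to 0.42), AKT2 at 0.10 (-0.10 to 0.29), PIK3R1 at 0.07 (-0.29 to 0.43) and INSR at -0.12 (-0.50 to 0.26). The interval was narrowest for AKT2 and wider for PIK3R1 and INSR, so that smaller changes of these 2 genes would not have been detectable.

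Markers of fibre type and of other cells also differed between the breeds. Of the slow fibre markers, 3 of 7 were lower in Landrace (MYH7B, TNNI1 and ATP2A2) and none higher, with a median log2 change of -0.64, and their summed level ran from 4635 to 14920 CPM in Duroc and from 1530 to 18540 CPM in Landrace. Of the fast fibre markers, 4 of 5 were higher in Landrace, with a median of 0.54 and sums of 30118 to 60970 and 21321 to 79852 CPM. Of the general fibre markers 2 of 3 were also higher, ACTA1 (0.38) and CKM (0.24), the latter not without the 3 pigs. Endothelial markers were lower for 4 of 5 (KDR, PECAM1, CDH5 and TEK), with sums of 57.8 to 171 CPM in Duroc and 31.6 to 146 CPM in Landrace. Lower in Landrace were also 2 of 3 smooth muscle, 2 of 6 fibroblast, 1 of 3 adipocyte and 1 of 8 leukocyte markers (1 of 6 fibroblast and 0 of 8 leukocyte markers without the 3 pigs), and no listed marker of these cells passed as higher. No marker summed was at 0 in every pig. The part of these markers in the SLC2A4 and HK2 results was not tested, and fewer cells of a type cannot be told apart from less RNA per cell in whole muscle.

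**Figure D2:**
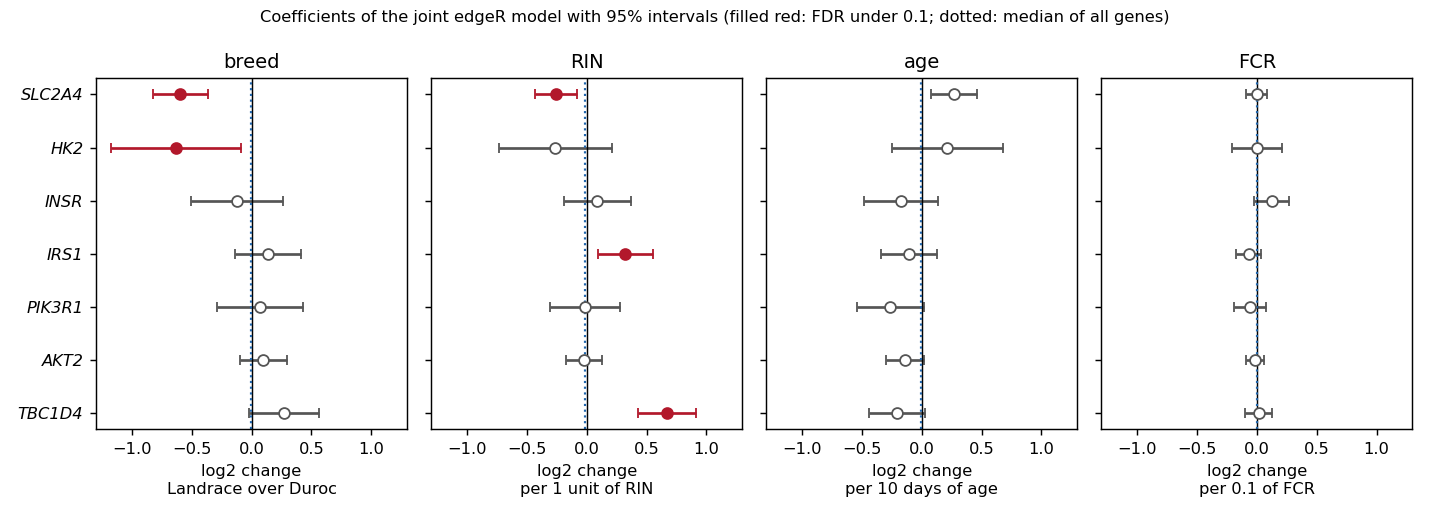
Log2 change of each of the 7 genes in the joint model for breed, RIN, age and FCR, with 95% intervals, filled red where FDR is under 0.1 and with the median of all genes as a dotted line. SLC2A4 and HK2 lie below 0 for breed, TBC1D4 and IRS1 above and SLC2A4 below 0 for RIN, and none is filled for age or FCR.

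The second comparison asked how the genes followed RNA integrity. TBC1D4 and IRS1 rose and SLC2A4 fell with RIN, 3 of 7 genes, while 51.8% of all genes tested passed, 23.9% rising and 27.9% falling. A higher RIN denotes better preserved RNA, so these slopes describe the samples as collected.

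TBC1D4 rose by 0.67 on the log2 scale per unit of RIN (SE 0.119, 95% interval 0.43 to 0.91, edgeR FDR 2.4e-05). The slope within the 3 batches of at least 9 pigs was 0.57, 0.90 and 0.65. Leaving out any one pig kept it between 0.56 and 0.72. The 3 pigs of lowest scaling factor, which have the lowest RIN values and the lowest TBC1D4, carried much of the slope: without them it was 0.32 (95% interval 0.02 to 0.62) and no longer passed (FDR 0.158), in a fit where 17.3% of all genes passed.

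IRS1 rose by 0.32 per unit (SE 0.113, 95% interval 0.09 to 0.55, FDR 0.019), with slopes of 0.51, 0.27 and 0.13 within batches 2, 3 and 5. This call rested on Landrace replicate 1, the pig of lowest RIN, without which the slope was 0.24 (FDR 0.159). Without the 3 pigs of lowest scaling factor it was 0.10 (FDR 0.726), and the call was also lost with batch taken as a number (FDR 0.263).

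SLC2A4 fell by 0.26 per unit (SE 0.0882, 95% interval -0.43 to -0.08, FDR 0.0175), with slopes of -0.17, -0.77 and -0.10 within the same batches. It was -0.38 (FDR 0.0829) without the 3 pigs, and without a filter on low counts the call was lost (FDR 0.139). When libraries were scaled by their total alone, the median slope of all genes moved from -0.010 to 0.298, and the SLC2A4 slope became 0.05, while its distance to that median was -0.25 under both scalings. Slow fibre markers moved with RIN as well, 6 of 7 of them falling with a median of -0.73, and of the fast fibre markers 1 of 5 rose and 3 fell. Fibroblast markers rose for 3 of 6 (PDGFRA 1.62, LUM 1.06 and COL3A1 0.93), with a list median of 0.61, and 1 of 3 general fibre, 1 of 3 smooth muscle and 1 of 8 leukocyte markers fell. In the fit without the 3 pigs, 3 of 7 slow and 1 of 5 fast fibre markers fell and 3 of 6 fibroblast markers rose, and none of the other listed markers passed. The part of these markers in the slopes of TBC1D4, IRS1 and SLC2A4 was not tested.

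The remaining genes did not pass. INSR had a slope of 0.09 (95% interval -0.19 to 0.37), which became 0.56 (0.15 to 0.98, FDR 0.0723) without the 3 pigs. HK2 was at -0.26 (-0.73 to 0.21), and passed at -0.69 (FDR 0.0569) once the 2 pigs with RIN under 7 were left out, a fit in which IRS1 did not pass (0.22, FDR 0.267). That call was lost when Duroc replicate 10, the pig with the highest HK2, was left out too, which leaves out the 3 pigs of lowest scaling factor (-0.33, FDR 0.529). AKT2 was at -0.02 (-0.18 to 0.13) and PIK3R1 at -0.01 (-0.31 to 0.28). Of all 7, AKT2 had the narrowest interval.

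**Figure D3:**
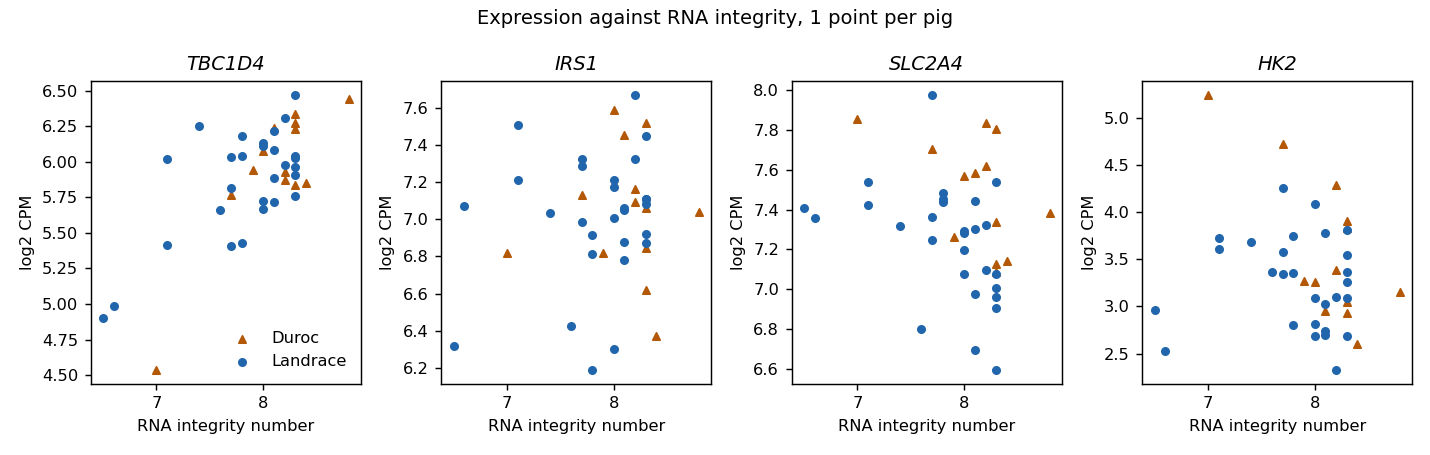
Log2 CPM of TBC1D4, IRS1, SLC2A4 and HK2 against RIN, 1 point per pig, with triangles for Duroc and circles for Landrace and no adjustment for covariates. The 3 pigs with RIN of 6.5, 6.6 and 7.0 lie lowest for TBC1D4, and the Duroc pig with RIN of 7.0 lies highest for HK2 with 37.9 CPM.

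The slopes on RIN were then compared between the breeds with an interaction term, and 0 of 7 genes passed, as did 0% of all genes tested. At an unadjusted p under 0.05, 2 of 7 genes stood out against 4.85% of all genes. HK2 differed by 1.26 (Landrace less Duroc, SE 0.405, edgeR p = 0.0036, FDR 0.881), with slopes of -1.12 in Duroc pigs alone and 0.03 in Landrace pigs alone. TBC1D4 differed by -0.52 (p = 0.0414, FDR 0.947), with slopes of 1.12 and 0.59. The Duroc slopes came from 13 pigs and 5 residual degrees of freedom, and Duroc replicate 10 had both the lowest RIN and the highest HK2 of that breed. Without the 3 pigs of lowest scaling factor the differences were 0.55 for HK2 (edgeR p = 0.399) and -0.25 for TBC1D4 (p = 0.455), and 0 of 7 genes had an unadjusted p under 0.05.

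The third comparison concerned age at sampling. No gene passed in edgeR (0 of 7, against 1.76% of all genes tested), and DESeq2 and limma, with 5.06% and 2.52% of all genes, also called 0 of 7. SLC2A4 was the 1 gene of 7 with an unadjusted p under 0.05, which 16% of all genes had. Its log2 change was 0.27 per 10 days (95% interval 0.08 to 0.46, p = 0.0074, FDR 0.164), opposite in sign to its breed change, and Landrace pigs were the older ones. Among the others, PIK3R1 was at -0.26 (-0.55 to 0.02), TBC1D4 at -0.21 (-0.44 to 0.03), INSR at -0.17 (-0.49 to 0.14), AKT2 at -0.14 (-0.30 to 0.02), IRS1 at -0.11 (-0.34 to 0.13) and HK2 at 0.21 (-0.25 to 0.68). None of these slopes passed the test. For SLC2A4 the slope within batches 2, 3 and 5, with no other term fitted, was -0.02, 0.04 and -0.49 per 10 days. The interaction of age with breed passed for 0 of 7 genes and for 0% of all genes.

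The fourth comparison, and the one the study was designed around, was with FCR. None of the 7 genes passed in edgeR, where 0% of all genes did, and none had an unadjusted p under 0.05, against 8.68% of all genes. DESeq2 called 0.0464% and limma 0% of all genes, and both called 0 of 7. The largest change was that of INSR, 0.12 on the log2 scale per 0.1 of FCR (95% interval -0.02 to 0.27, p = 0.0889, FDR 0.622), and without the 3 pigs of lowest scaling factor it was 0.19 (0.05 to 0.33, FDR 0.600). In Landrace pigs only, 1 of 7 genes had an unadjusted p under 0.05, against 5.5% of all genes. The same count held without the 3 pigs (7.61% of all genes) and with scaling by library size only (18.9%), and none passed.

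For the glucose transporter gene SLC2A4 the FCR slope was -0.00 (-0.09 to 0.09), and for HK2 it was 0.00 (-0.21 to 0.21). AKT2 had -0.01 (-0.09 to 0.06), TBC1D4 0.01 (-0.10 to 0.12), PIK3R1 -0.06 (-0.19 to 0.08) and IRS1 -0.07 (-0.18 to 0.04). These intervals bound the change per 0.1 of FCR, which is about the SD of FCR within a breed, most tightly for AKT2 and SLC2A4 and least for HK2. The interaction of FCR with breed passed for 0 of 7 genes and for 0% of all genes, and INSR came nearest, with a difference of 0.27 (95% interval -0.00 to 0.55, p = 0.0519). Without the 3 pigs INSR was at 0.23 (p = 0.0759) and HK2 at -0.51 (p = 0.0055, FDR 0.896), and again none passed.

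Batch was a covariate in these models, and its own F test, chosen after the data were seen, passed for 3 of 7 genes, against 24.1% of all genes: IRS1 (FDR 0.00645), INSR (FDR 0.0584) and PIK3R1 (FDR 0.0825). INSR was highest in batch 4 in both breeds, with means of 15.5 CPM in Duroc and 15.7 CPM in Landrace, and lowest in batch 5, with 8.54 and 8.43 CPM. IRS1 in Landrace averaged 151 CPM in batch 5 and 107 CPM in batches 3 and 4. The batch 4 value came from 2 pigs with an SD of 30.3 CPM. Its Duroc means in batches 2 to 5 were 147, 137, 127 and 145 CPM, and the 1 pig of batch 1, a Duroc, had 82.9 CPM. None of these 3 genes passed for breed.

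Whether the 7 genes varied together was examined over the 41 pigs in log2 CPM adjusted for the covariates, with permutation tests and Benjamini-Hochberg (BH) adjustment over 21 pairs. The permutations treat the 41 adjusted values as free, and in them 3 pairs, all with SLC2A4, were under 0.1 by Pearson's r and 0 by Spearman's rho. With the fitted covariates counted in the degrees of freedom, a partial correlation test chosen after seeing the data, 0 of 21 pairs passed and the same 3 had p of 0.0202, 0.0238 and 0.0293 (BH 0.205 for each), so that none is called here. SLC2A4 and IRS1 had r = 0.402 (permutation p = 0.0090, BH 0.099) and rho = 0.347 (permutation p = 0.0266, BH 0.167). SLC2A4 and AKT2 had r = 0.393 (permutation p = 0.0107, BH 0.099) and rho = 0.336 (permutation p = 0.0318, BH 0.167). SLC2A4 and INSR had r = -0.380 (permutation p = 0.0142, BH 0.099) and rho = -0.389 (permutation p = 0.0125, BH 0.167).

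Without the 2 pigs farthest from the SLC2A4 median, r was 0.293, 0.228 and -0.306 for the 3 pairs. Within batches 2, 3 and 5, r was 0.419, 0.505 and 0.010 with IRS1, 0.222, 0.808 and 0.218 with AKT2, and -0.432, -0.585 and -0.106 with INSR. The sign was the same in each batch, but r was near 0 in batch 5 with IRS1, and r with AKT2 was high in batch 3 alone. Within Duroc and Landrace pigs r was 0.351 and 0.443 with IRS1, 0.666 and 0.302 with AKT2, and 0.058 and -0.544 with INSR, so that r with INSR was not negative in Duroc. Without adjustment r was 0.118 with IRS1, 0.160 with AKT2 and -0.349 with INSR, and none of the 3 pairs passed. In log2 CPM without adjustment 2 other pairs passed by Pearson's r, AKT2 with PIK3R1 (r = 0.451, permutation p = 0.0032, BH 0.068, rho = 0.452, permutation p = 0.0034, BH 0.072) and SLC2A4 with HK2 (r = 0.403, permutation p = 0.0088, BH 0.092, rho = 0.355, permutation p = 0.0225, BH 0.188), the latter not by Spearman's rho. For AKT2 with PIK3R1 the within-batch r was 0.360, 0.574 and 0.092, and r was 0.273 after adjustment (BH 0.359). For SLC2A4 with HK2 the within-batch r was 0.458, -0.210 and 0.830, so that this relation did not hold in batch 3, and r was 0.13 after adjustment.

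**Figure D4:**
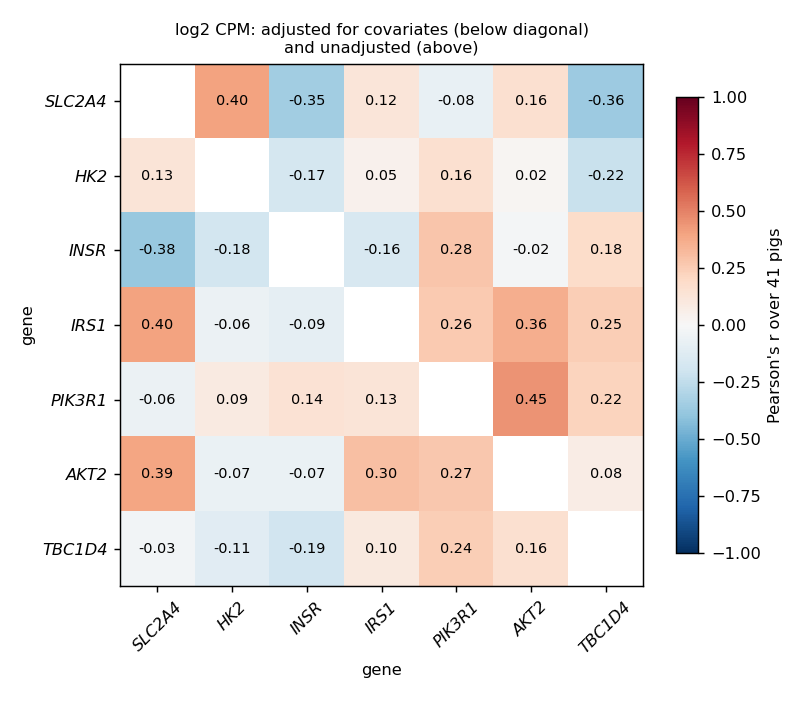
Pearson's r over 41 pigs for each pair of the 7 genes, adjusted for FCR, RIN, age, breed and batch below the diagonal and unadjusted above it, from blue for negative to red for positive. The adjusted values for SLC2A4 reach 0.40 with IRS1, 0.39 with AKT2 and -0.38 with INSR.

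The genes whose adjusted pattern over the 41 pigs was most like each member, by Spearman's rho among the 11145 other genes, were found as a description, with no test. The highest was RBM38 for AKT2 (rho = 0.806), followed by ZNF865 and BCAR1. TBC1D4 was most like THRAP3 (0.778), ADO and LGR4, and INSR most like FILIP1 (0.760), DDX21 and ZNF516. PIK3R1 was most like PHF2 (0.689), CECR2 and UBE2R2, and SLC2A4 most like SEPHS1 (0.662), TMEM38A and FANCE. IRS1 was most like CMYA5 (0.607), ZCCHC24 and KDM2A, and JARID2 (0.670) and MTNAP1 were among the 3 genes most like HK2. No member was among the 3 genes most like another member.

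The wider pathway was described with 105 other genes listed by role, of which 99 were matched by symbol and 89 were tested. For breed 32 of 89 passed (36%), 16 higher and 16 lower in Landrace, with a median log2 change of 0.0035 against -0.0024 over all genes. For RIN 52 passed (58.4%), 28 rising and 24 falling. The breed and RIN shares were both a little above the 33.1% and 51.8% of all genes tested. With the 3 pigs of lowest scaling factor left out, 28 of 89 passed for breed (31.5%), against 32.4% of all genes, 16 higher and 12 lower.

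Among receptor adaptors, 3 of 9 differed by breed, 2 higher and 1 lower in Landrace. Among them the docking protein GAB1 (0.62) and the adaptor SH2B1 (0.27) were higher in Landrace. In PI3-kinase 3 of 6 differed: the regulatory subunit PIK3R3 was lower in Landrace, at 5.47 ± 1.89 against 8.58 ± 2.82 CPM (-1.29), PIK3R2 was lower (-0.24) and the catalytic PIK3CA higher (0.24). PIK3R1, the member of that group, was at 0.07 and did not pass. Among AKT and its activating kinases 3 of 7 differed, 1 higher and 2 lower, among them the mTORC2 subunit MAPKAP1, which was higher (0.29), and MLST8, which was lower (-0.34).

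Inhibitors of the pathway differed for 3 of 14. The phosphatase PTPRF (-1.01) and the suppressor SOCS3 (-1.80) were lower in Landrace and the receptor inhibitor GRB10 higher (0.40). SOCS3 varied widely between pigs, with an SD above the mean in both breeds (15.6 ± 24.3 CPM for Duroc, 4.86 ± 8.01 CPM for Landrace). In GLUT4 vesicle traffic 4 of 20 differed, among them the fusion protein SNAP23 (0.31), the vesicle GTPase RAB8A (-0.29) and TBC1D1 (-0.58), the close relative of TBC1D4. Among the other glucose transporters and hexokinases 3 of 6 differed, 1 higher and 2 lower in Landrace, and the lower ones were HK1 (-0.72) and the fructose transporter SLC2A5 (-1.46).

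AMP-activated kinase, which promotes glucose uptake without insulin, differed for 6 of 11 genes, 3 higher and 3 lower in Landrace. Its catalytic subunit PRKAA2 was higher in Landrace, with means of 212 against 170 CPM (0.52), and so was the muscle subunit PRKAG3, at 96.3 ± 20.6 against 70.5 ± 10.5 CPM (0.55), while STRADA, a partner of the upstream kinase, was lower (-0.54). Transcription factors differed for 5 of 11, with FOXO4 (0.31) and FOXO3 (0.44) higher and PPARGC1A, a coactivator of oxidative metabolism that promotes SLC2A4 expression, lower in Landrace (-0.71). Of 5 kinases downstream of AKT, RPS6KB1 (0.26) and GSK3B (0.26) were higher. Of the genes named for breed, SH2B1, PIK3R2, PIK3CA, MLST8, SOCS3 and PPARGC1A no longer passed without the 3 pigs, which left 1 of 6 PI3-kinase genes and 1 of 7 AKT and activating kinases.

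For RIN, 18 of 20 GLUT4 traffic genes passed, 7 rising and 11 falling, where 51.8% of all genes did, and 5 of 20 passed without the 3 pigs of lowest scaling factor, where 17.3% of all genes did. Among those that passed in the fit of all pigs were VAMP2 (-0.51) and STXBP3 (-0.45), which serve in vesicle fusion. The slope of TBC1D4 was 0.67 in that fit and 0.32 without the 3 pigs (FDR 0.158), where it did not pass. GAB1 (1.07) and IRS2 (0.58), an adaptor close to IRS1, rose, as did PIK3C2A (0.94) and PIK3CA (0.48). MLST8 (-0.36), SOCS1 (-0.77), PTPN2 (-0.26), SLC2A8 (-0.50), PPARGC1A (-0.83) and RPS6KB2 (-0.44) fell, and PRKCI (0.37), SLC2A12 (0.27), PRKAB2 (0.45), PRKAA2 (0.38), HIF1A (0.48) and RPS6KB1 (0.43) rose. Without the 3 pigs 20 of the 89 genes passed (22.5%), near the 17.3% of all genes in that fit. Of the genes named for RIN, VAMP2, GAB1, PIK3C2A, PIK3CA, SOCS1, RPS6KB1 and RPS6KB2 passed there and the other 11 did not. None of the 11 transcription factors passed there, against 7 in all pigs.

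For age 2 of 89 passed, where 1.76% of all genes did: PIK3R3, which rose by 0.54 per 10 days (FDR 0.0923), and GRB10, which fell by 0.47 (FDR 0.0995). The endothelial markers KDR (0.72) and CDH5 (0.45) rose with age as well, 2 of 5 of that list, and their part in the age slopes was not tested. For FCR 0 of 89 passed in edgeR.

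**Figure D5:**
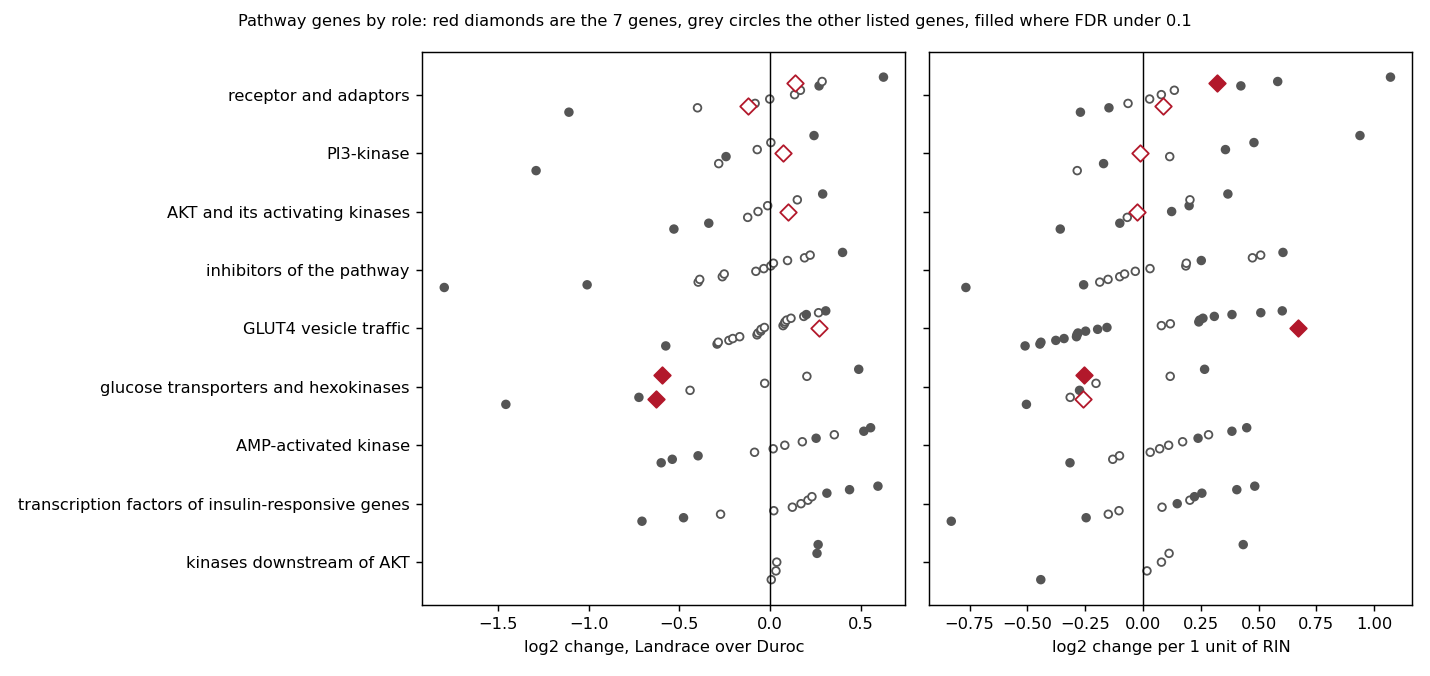
Log2 change in the joint model for breed and for RIN of the 7 genes (red diamonds) and the 89 other tested genes of the pathway (grey circles), by role, filled where FDR is under 0.1. SLC2A4 and HK2 lie left of 0 for breed with HK1 and SLC2A5, and TBC1D4 lies at 0.67 for RIN with all 41 pigs in the fit, against 0.32 without the 3 pigs of lowest scaling factor.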

How the data were processed

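The authors trimmed read pairs with Trimmomatic 0.39 and aligned them to Sscrofa11.1 with STAR 2.7.1a, which counted pairs per gene of Ensembl release 96. The deposited values are raw counts, and the column without strand was used here. Pairs that fell on single genes made up 69.9 to 80.9% of each library, and pairs on several genes or places were not counted, so that near-identical copies are undercounted. Gene symbols were matched by Ensembl ID, and coordinates are those of RefSeq on Sscrofa11.1, where no other gene overlapped the 7.

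Counts were tested with edgeR 4.0.16 (R 4.3.3): filterByExpr (count minimum 10), TMM scaling, and a quasi-likelihood model of FCR, RIN, age, breed and batch over all 41 pigs with 32 residual degrees of freedom, which takes its terms from the study's joint model. P-values were adjusted by Benjamini-Hochberg over 11146 genes, with a threshold of 0.1. Standard errors were the log2 change over the root of F. Each pig is 1 library, so p-values measure the spread between pigs. DESeq2 1.42.0 (at least 5 counts in every pig) and limma 3.58.1 were alternatives. Permutation tests used 100000 resamples and were two-sided. On simulated counts the procedure recovered 90.5% of genes changed by a log2 of 1 for breed, and 70.0%, 60.5% and 96.4% of those changed by 0.5 per step of RIN, age and FCR. False calls made up 8.16%, 14.1%, 6.92% and 7.80%, for RIN above the threshold used. Each simulation changed 200 genes for a single term and none for the other terms. Recovery of smaller changes, such as the breed, age and FCR changes of the 7 genes, was not measured.

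Pathway genes named in the text are, for each role, at most the 3 of smallest p for breed and the 2 for RIN among those that passed, and for age and FCR at most 3. Genes most alike are the 3 of highest Spearman's rho. A few genes that these rules name are not reported here. The 7 genes and all lists were chosen with earlier results of these data known.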

Additional observations from a re-analysis of the deposited data

How the results depend on the processing

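The number of the 7 genes that passed for breed was 2 and became 1 with RIN left out, with age left out, with breed as the only term, without a filter on low counts and, chosen after seeing the data, without the 3 pigs of lowest TMM factor; leaving out each pig in turn gave 1 to 2. For RIN it was 3 and became 0 in Duroc pigs only, where 0% of all genes passed, 2 with batch as a number, without a filter and without the 3 pigs, and 5 with scaling by library size only, where 63.8% of all genes passed, and leaving out each pig gave 2 to 3. For age it was 0 and became 1 with batch as a number (SLC2A4). Of the 89 other pathway genes, 32 passed for breed and 20 with breed as the only term; 52 passed for RIN, and 0 in Duroc pigs only and 20 without the 3 pigs; 2 passed for age, and 4 in DESeq2, 6 with batch as a number, 1 in limma, and 0 in Duroc only, in Landrace only, with RIN left out, with library size only and without a filter. The cause of these changes was not tested. Of the 21 pairs of the 7 genes, 3 were under 0.1 by permutation of adjusted values and 0 with the fitted covariates counted in the degrees of freedom (chosen after seeing the data), a test that by construction gives a larger p for the same r. Library size alone moved the median log2 change of all genes to -0.18 for breed and 0.30 for RIN.

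Changes of sign concerned values that had not passed, with SLC2A4 for RIN under library size (0.051) the exception. For breed these were INSR without the 3 pigs (0.029), IRS1, AKT2, TBC1D4 and PIK3R1 with breed only (-0.036, -0.036, -0.10, -0.24), IRS1, AKT2 and PIK3R1 with library size (-0.033, -0.078, -0.087) and PIK3R1 with age left out (-0.10). For RIN they were AKT2, HK2 and PIK3R1 in Landrace only (0.0091, 0.026, 0.047) and with library size (0.28, 0.052, 0.31), AKT2 and PIK3R1 without a filter (0.043, 0.058) and with the strand columns summed (0.049, 0.063, chosen after seeing the data), and PIK3R1 in DESeq2 (0.0046) and with batch as a number (0.043). For age they were INSR and IRS1 in Duroc only (0.33, 0.25) and TBC1D4 and HK2 in Landrace only (0.0065, -0.12). For FCR they were SLC2A4 in Duroc only (0.017), with RIN left out (0.0048), age left out (0.038), library size (0.055), no filter (0.0069) and summed strands (0.0058), TBC1D4 and HK2 in Landrace only (-0.029, -0.035) and with RIN left out (-0.021, -0.0057), TBC1D4 with age left out (-0.021) and without the 3 pigs (-0.052), INSR and PIK3R1 in Duroc only (-0.095, 0.0081), and AKT2 and PIK3R1 with library size (0.045, 0.00094). Without the 3 pigs, differences between the breeds changed sign for TBC1D4 with FCR (0.058), INSR with RIN (-0.33) and SLC2A4, TBC1D4 and PIK3R1 with age (-0.029, -0.0012, -0.012), none of which had passed. Unadjusted correlations changed sign for INSR with TBC1D4 (0.185), IRS1 with HK2 (0.0468) and AKT2 with HK2 (0.020). No paired analysis was possible because replicate numbers only name the pigs in order and pair none of them.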
